A study of Homo sapiens with 18 samples.

Results

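The 37 genes described here encode the machinery that shortens poly(A) tails, removes caps and degrades RNA from either end. They were taken by name from a list of its known subunits, and all 37 were found among the 63568 gene entries of the deposited expression table. They comprise 10 subunits of the CCR4-NOT complex, 3 genes of other deadenylases (PAN2, PAN3 and PARN), 6 decapping genes, the exonucleases XRN1 and XRN2, 9 core subunits of the RNA exosome, 4 exosome-type nucleases (EXOSC10, DIS3, DIS3L and DIS3L2) and 3 helicase or helicase-partner genes (MTREX, SKIV2L and TTC37). All samples were cultures of HEK293, an established human kidney-derived line, with no genetic change or drug named in the labels. Cells were given 500 µM 4-thiouridine, a uridine analogue that enters RNA made after its addition, and the thiolated RNA was biotinylated and pulled down after 7.5, 15, 30, 45 or 60 min (3 libraries each, replicates A, B and C). Total RNA that was not pulled down gave 3 more libraries, which differ in preparation: 1 was selected with oligo-dT (PA), 1 was depleted of ribosomal RNA with RNase H (RH) and 1 with Ribo-Zero (RZ), so their spread holds the method. The labels do not call the replicates separate cultures, so the p-values rest on the spread among libraries, and that spread may be technical only.

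Most mRNAs are thought to decay after their poly(A) tail is trimmed, first by PAN2-PAN3 and then by CCR4-NOT. The shortened mRNA is decapped by DCP2 and eaten from the 5′ end by XRN1, or degraded from the 3′ end by the exosome, a ring of inactive subunits that feeds RNA to the nucleases DIS3 and EXOSC10. In the nucleus XRN2 and the exosome also process and remove non-coding and faulty RNA. The comparisons below ask how the mRNAs of this machinery are themselves made, spliced and degraded.

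Values are the authors' TPM (length-scaled shares of all transcripts in a library), given per gene for the mature transcripts and for a primary transcript that spans the whole locus. TPM hold no read depth, so the counting error of a value is unknown. The primary share of all TPM lay between 7.19 and 11% in the libraries of 60 min, between 22.3 and 23.8% in those of 7.5 min and between 0.528 and 0.879% in total RNA, and fewer genes were listed above 0 in 45 min replicate B (15159) than in any other library (18318 to 24470). Of the HEK293 marker list, 5 of 7 genes had an entry and 4 of these averaged at least 1 TPM, with sums of 703.8 to 1340.8 TPM in total RNA and 354.4 to 456.4 TPM at 60 min. Most of that sum was VIM, with 547.4 to 1043.0 TPM in total RNA, followed by KRT8 (96.4 to 206.4) and KRT18 (54.8 to 89.95). PAX2 had 0.15 to 1.55 TPM in total RNA and 4.85 TPM on average over all libraries, and NEFM averaged 0.41 TPM. The 13 markers of other cell types summed to 5.41 to 23.3 TPM in total RNA and 0.97 to 5.41 TPM at 60 min. Of these, 2 averaged at least 1 TPM over all libraries, HBA1 (5.41) and COL1A1 (2.19).

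In total RNA the members were expressed at moderate levels, and 36 of 37 averaged above 5 TPM. CNOT1, the scaffold of CCR4-NOT, was highest, with 168.9 TPM in PA, 163.2 in RH and 79.5 in RZ (mean 137.2 ± 50, SD, n = 3). EXOSC10 (78.9 ± 25.1 TPM), CNOT7 (72.6 ± 14.4) and XRN2 (71.8 ± 18.9) came next, and these 3 did not differ beyond their spread. At the low end of the order stood PAN3 (8.97 ± 2.20 TPM), CNOT6L (8.86 ± 3.89), DCP1A (6.23 ± 3.14) and DIS3L2 (5.42 ± 1.88), whose spreads overlap as well. Within the CCR4-NOT deadenylases the order was CNOT7 (72.6 TPM), CNOT8 (23.9 ± 7.34), CNOT6 (18.5 ± 10.9) and CNOT6L. By the authors' spike-in estimates, CNOT1 mRNA was present at 14.3 (PA), 64.1 (RH) and 19.1 (RZ) copies per cell, against 0.672, 2.87 and 0.689 for DIS3L2. The 3 methods thus differed by several times in absolute copies for the same gene.

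For CNOT3 and SKIV2L the values are of limited use. CNOT3, a subunit of the NOT module, was listed at 0.91, 1.14 and 0.05 TPM in total RNA (PA, RH, RZ) and its primary transcript at 0 in every library. RPS9, a ribosomal protein gene near CNOT3 on chromosome 19, was listed at a mean of 20.8 TPM in total RNA, against a median of 1017.6 TPM over 31 genes with RPS symbols. SKIV2L, the helicase of the cytoplasmic SKI complex, lies in the MHC region of chromosome 6, where its neighbour NELFE had a primary transcript of at most 0.01 TPM in any library. The table also holds 11387 entries that match no symbol, of which 338 averaged at least 10 TPM in total RNA. Whether reads of CNOT3 or SKIV2L were assigned to other entries was not tested.

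**Figure D1:**
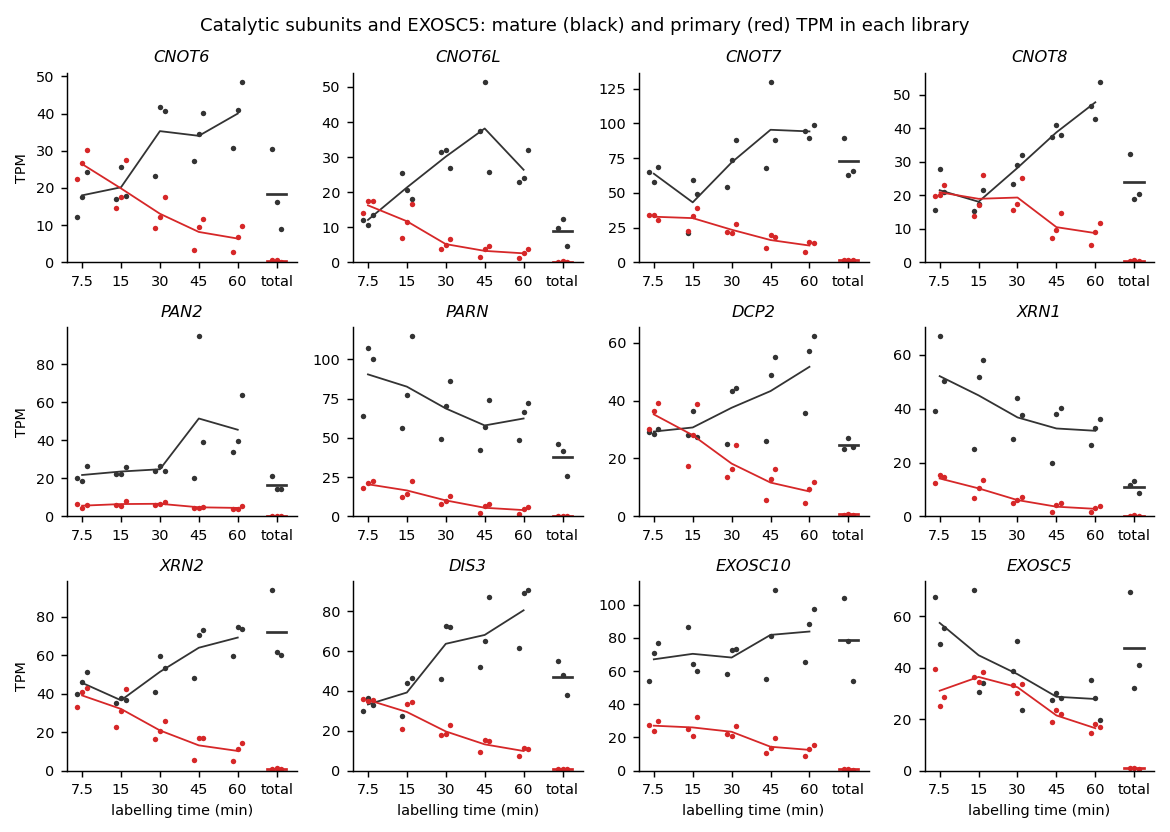
Mature (black) and primary (red) TPM of 11 catalytic subunits and EXOSC5 in each library against labelling time in minutes (times evenly spaced, total RNA at the right). Points are libraries, lines join group means and bars mark the mean of total RNA. Mature CNOT8 and DIS3 lie higher in all 3 libraries of 60 min than in all 3 of 7.5 min, while EXOSC5 lies lower.

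The first comparison asks which spliced mRNAs gain or lose weight within labelled RNA between 7.5 and 60 min. In the limma fit over the 15 labelled libraries, on log2(TPM + 1) and adjusted over 16739 genes, 12 of 37 members were higher at 60 min, where 15.8% of all genes tested were called higher, and 1 of 37 was lower, against 4.21% of all genes. The median log2 change of the 37 was 0.62, and that of all genes tested was 0.24. The calls fell on 6 of 10 CCR4-NOT genes, 1 of 3 other deadenylase genes, 3 of 6 decapping genes, DIS3 and SKIV2L. No XRN gene and no core exosome gene was called higher in limma (1 and 2 at an unadjusted p under 0.05), and the single lower call was the core subunit EXOSC5.

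These counts depend on the scale. After median-ratio scaling, which moves the median of all genes to -0.05, 3 members were higher and 5 lower, beside 1296 and 1306 of 16739 genes. After quantile normalization (median 0.01) the counts were 4 and 4, beside 1510 and 1176 of 16739 genes. After rescaling TPM over mature transcripts alone (median 0.03) they were 5 and 3, beside 1588 and 960 of 17272 genes. CNOT8, PAN3 and DIS3 were called higher in each of the 13 alternative fits, and CNOT4 joins them if only the 6 fits that leave out 1 library are counted. Without 60 min replicate A, B or C the counts of higher and lower members were 8 and 1, 8 and 0, and 5 and 0. Without 7.5 min replicate A, B or C they were 7 and 1, 8 and 0, and 9 and 0. In these 6 fits 1835 to 2226 of all genes tested were higher and 408 to 558 lower.

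Among the CCR4-NOT deadenylases, CNOT8 showed the clearest rise. CNOT8, a CAF1-type deadenylase, had 15.7, 28.0 and 21.0 TPM at 7.5 min (A, B, C), 15.2, 17.5 and 21.6 at 15 min, 23.5, 29.1 and 32.1 at 30 min, 37.5, 41.1 and 37.9 at 45 min and 46.7, 42.9 and 53.8 at 60 min, and 32.3, 18.8 and 20.5 in total RNA (PA, RH, RZ). Its log2 change from limma was 1.15 (SE 0.235, adjusted p = 0.00303), and the groups of 60 and 7.5 min did not overlap. Its paralogue CNOT7 had 64.8, 58.1 and 68.5 TPM at 7.5 min, 20.8, 59.4 and 49.2 at 15 min, 54.0, 73.7 and 88.0 at 30 min, 68.2, 129.7 and 88.4 at 45 min and 94.4, 89.2 and 99.1 at 60 min, and 89.2, 62.9 and 65.7 in total RNA. Every library of 60 min was again above every library of 7.5 min, but the change did not pass (log2 0.56, SE 0.33, adjusted p = 0.266 in limma), and 15 min replicate A stood low.

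The CCR4-type deadenylases rose by about 1 on the log2 scale, with less support from the alternatives. CNOT6 had 12.1, 17.5 and 24.4 TPM at 7.5 min, 17.1, 25.7 and 17.8 at 15 min, 23.1, 41.9 and 40.8 at 30 min, 27.2, 34.6 and 40.3 at 45 min and 30.7, 40.8 and 48.4 at 60 min, and 30.3, 16.2 and 8.99 in total RNA (log2 1.14 for 60 over 7.5 min, SE 0.31, adjusted p = 0.016 in limma). CNOT6L had 12.2, 10.7 and 13.4 TPM at 7.5 min, 25.3, 20.7 and 17.9 at 15 min, 31.3, 32.1 and 26.9 at 30 min, 37.5, 51.4 and 25.7 at 45 min and 22.9, 24.2 and 32.1 at 60 min, and 9.72, 12.2 and 4.61 in total RNA (log2 1.06, SE 0.26, adjusted p = 0.00961). For both genes the libraries of 60 min lay above those of 7.5 min, and both calls were lost under median-ratio scaling, under quantile normalization and without 60 min replicate C. The CNOT6 call was also lost without 60 min replicate B and without 7.5 min replicate A, and with TPM rescaled over mature transcripts. Of the other subunits, CNOT1 (log2 0.69), CNOT2 (0.88) and the ubiquitin ligase CNOT4 (0.88) were called higher, while CNOT11 (0.71), CNOT3 (0.64) and CNOT10 (-0.45) did not pass. The CNOT1 and CNOT2 calls were lost under each other scaling. CNOT1 was also not called without 60 min replicate B or C or 7.5 min replicate A, and CNOT2 not without 60 min replicate C or 7.5 min replicate A or B.

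Among the other deadenylases the 2 subunits of PAN2-PAN3 and the separate enzyme PARN had opposite signs. PAN3, the adaptor that joins PAN2 to its targets, had 23.4, 28.4 and 30.7 TPM at 60 min, against 7.13, 16.3 and 11.1 at 7.5 min (log2 1.25, SE 0.31, adjusted p = 0.00999 in limma). PAN2, the nuclease, had 20.0, 18.6 and 26.7 TPM at 7.5 min, 22.4, 22.3 and 26.1 at 15 min, 24.0, 26.6 and 23.8 at 30 min, 20.5, 94.7 and 39.3 at 45 min and 33.6, 39.5 and 63.6 at 60 min, and 21.4, 14.4 and 14.5 in total RNA. The PAN2 libraries of 60 min lay above those of 7.5 min, 45 min replicate B stood apart, and the change did not pass (log2 1.00, SE 0.40, adjusted p = 0.0968). PARN, a nuclease of poly(A) tails on mRNA and small non-coding RNA, had 64.0, 106.9 and 100.1 TPM at 7.5 min, 56.2, 76.9 and 114.5 at 15 min, 49.4, 70.5 and 86.2 at 30 min, 42.3, 56.9 and 74.3 at 45 min and 48.4, 66.4 and 72.1 at 60 min, and 46.2, 41.4 and 25.7 in total RNA (log2 -0.52, SE 0.31, adjusted p = 0.274). Replicate A was the lowest at each labelling time for PARN, and the groups of 60 and 7.5 min overlapped. PARN was called lower after median-ratio scaling (adjusted p = 0.0395).

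In decapping, 3 activators were called on the TPM scale, and none of these calls held under another scaling. DCP1A, a DCP2 partner, had 36.0, 23.2 and 26.2 TPM at 60 min, against 4.86, 7.14 and 7.39 at 7.5 min (log2 1.98, SE 0.62, adjusted p = 0.0352 in limma). It was listed at 0 in 15 min replicate A, where its primary transcript had 11.9 TPM. The DCP1A call was lost without any 1 of the 6 libraries compared (adjusted p 0.0656 to 0.118) and under each other scaling (0.0869 to 0.0958). It was also lost with a pseudocount of 0.1 (0.249) and without the filter on low values (0.0862). With only the 6 libraries compared (0.00162) and with the replicate block (0.0225) it held. The scaffold EDC4 (log2 0.91) and EDC3 (0.65) were also called higher. The EDC3 call was lost without any 1 of the 6 libraries (adjusted p 0.0613 to 0.17) and under each other scaling (0.24 to 0.415). The EDC4 call was lost under each other scaling (0.104 to 0.253) and without 60 min replicate A or C or 7.5 min replicate B or C (0.055 to 0.128). DCP2, the decapping enzyme, had 29.1, 28.4 and 30.3 TPM at 7.5 min, 28.1, 36.5 and 27.5 at 15 min, 24.9, 43.5 and 44.2 at 30 min, 26.1, 48.7 and 55.0 at 45 min and 35.7, 57.0 and 62.2 at 60 min, and 23.1, 27.1 and 24.1 in total RNA. The DCP2 groups of 60 and 7.5 min did not overlap, but the change did not pass (log2 0.76, SE 0.30, adjusted p = 0.0956), as for DCP1B (0.62) and the cap scavenger DCPS (-0.49).

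The 5′ to 3′ exonucleases had opposite signs, and neither passed. XRN1, the cytoplasmic enzyme, had 39.2, 66.9 and 50.2 TPM at 7.5 min, 25, 51.7 and 58.2 at 15 min, 28.6, 44.1 and 37.6 at 30 min, 19.7, 38.0 and 40.3 at 45 min and 26.7, 32.7 and 36.0 at 60 min, and 11.5, 13.1 and 8.71 in total RNA. XRN2, the nuclear enzyme, had 39.5, 45.8 and 51.5 TPM at 7.5 min, 35.2, 37.6 and 36.8 at 15 min, 40.7, 59.7 and 53.6 at 30 min, 47.9, 70.6 and 73.0 at 45 min and 59.3, 74.5 and 73.6 at 60 min, and 93.6, 61.8 and 60.1 in total RNA. Every XRN1 library of 60 min lay below every one of 7.5 min and every XRN2 library above, with limma log2 changes of -0.67 (SE 0.34, adjusted p = 0.188) and 0.59 (SE 0.21, adjusted p = 0.0649). XRN1 was called lower after median-ratio scaling and after quantile normalization.

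Of the exosome genes, the nuclease DIS3 and the ring subunit EXOSC5 moved apart. DIS3 had 29.9, 36.5 and 33.2 TPM at 7.5 min, 27.4, 43.8 and 46.4 at 15 min, 46.2, 72.7 and 72.2 at 30 min, 52.1, 65.0 and 87.3 at 45 min and 61.6, 89.4 and 90.5 at 60 min, and 55.0, 47.8 and 37.9 in total RNA (log2 1.24 for 60 over 7.5 min, SE 0.27, adjusted p = 0.00418 in limma). EXOSC5 had 67.6, 49.4 and 55.4 TPM at 7.5 min, 70.2, 30.6 and 33.9 at 15 min, 38.7, 50.4 and 23.5 at 30 min, 27.6, 30.2 and 28.4 at 45 min and 35.4, 28.4 and 19.8 at 60 min, and 69.5, 32.2 and 41.2 in total RNA (log2 -1.04, SE 0.33, adjusted p = 0.0349). For both genes the groups of 60 and 7.5 min did not overlap. The DIS3 call held in each alternative, whereas the EXOSC5 call held under each scaling but, of the fits without 1 library, only in that without 60 min replicate A (adjusted p 0.0376, against 0.0545 to 0.149 in the other 5), and not without the filter on low values.

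The remaining exosome nucleases and core subunits did not pass on the TPM scale. EXOSC10, the nuclear nuclease, had 53.8, 70.7 and 76.8 TPM at 7.5 min, 86.5, 64.5 and 60.1 at 15 min, 58.4, 72.6 and 73.5 at 30 min, 55.4, 81.4 and 108.6 at 45 min and 65.3, 88.5 and 97.7 at 60 min, and 104.2, 78.4 and 54.0 in total RNA, with overlapping groups (log2 0.31, SE 0.25, adjusted p = 0.448 in limma). DIS3L, a cytoplasmic nuclease of the exosome, had a log2 change of 0.34, and DIS3L2, which degrades uridylated RNA without the exosome, one of -1.01 (adjusted p = 0.0794). DIS3L2 and the core subunit EXOSC1 (log2 -0.67) were called lower under each of the 3 other scalings (adjusted p 0.0128 to 0.0483 for DIS3L2 and 0.0186 to 0.0465 for EXOSC1). Among the 8 core subunits other than EXOSC5 the log2 changes ran from -0.68 (EXOSC7) to 0.78 (EXOSC9). SKIV2L had 26.1, 8.83 and 10.0 TPM at 60 min, against 2.35, 6.30 and 1.94 at 7.5 min (log2 1.78, adjusted p = 0.0287). Its call was lost without 60 min replicate A (log2 1.32, adjusted p = 0.145), without 7.5 min replicate A (adjusted p = 0.0875) and without 7.5 min replicate C (adjusted p = 0.11). The SKIV2L call was also lost after median-ratio scaling (adjusted p = 0.065), with TPM rescaled over mature transcripts (0.0605) and without the filter on low values (0.0695). After quantile normalization it held (0.0423). MTREX (log2 -0.05), the nuclear exosome helicase, and TTC37 (-0.21), the SKI scaffold, were low in replicate A, with 55.0 and 37.6 TPM at 60 min against 102.8 and 114.8 TPM in replicate B of the same time.

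**Figure D2:**
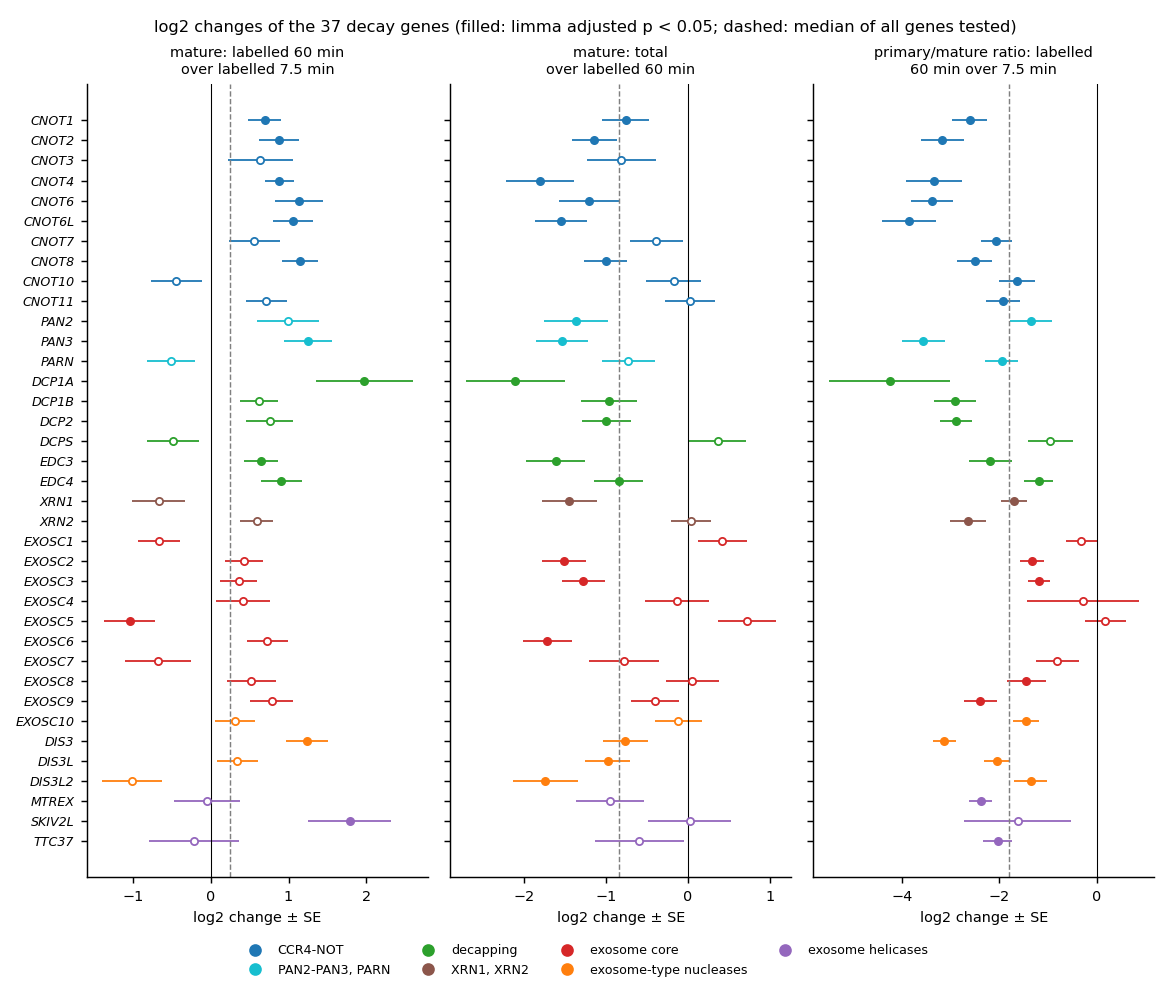
log2 change ± SE of each member for mature RNA at 60 over 7.5 min (left), mature total RNA over 60 min (middle) and the primary to mature ratio at 60 over 7.5 min (right). Rows are genes coloured by complex, filled points have a limma adjusted p below 0.05 and dashed lines mark the median of all genes tested (0.24, -0.84 and -1.81). The core exosome genes EXOSC1, EXOSC4, EXOSC5 and EXOSC7 stay nearest to 0 in the ratio.

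Splicing was followed in 2 ways, first by the primary transcripts. CNOT3 and EXOSC6 had no tested primary transcript, CNOT3 because it was listed at 0 and EXOSC6 because it has no intron. In the limma fit 31 of 35 members were lower at 60 than at 7.5 min in primary TPM, as were 59.4% of the 20010 genes tested, and none was higher (0.610% of all genes), also at an unadjusted p under 0.05. The members' median log2 change was -1.69, against -1.18 over all genes. After median-ratio scaling, which moves the median of all genes to 0.07, 12 were lower and 6 higher, beside 3135 and 2963 of 20010 genes. After quantile normalization (median -0.06) 12 were lower and 5 higher, beside 3486 and 2471 of all genes. Only the change relative to other genes can thus be read from these values.

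The falls were deepest for CNOT6L, with primary transcripts of 1.21, 2.75 and 3.70 TPM at 60 min, against 13.9, 17.4 and 17.4 TPM at 7.5 min (log2 -2.75, SE 0.47, adjusted p = 0.00062 in limma), and for PARN, with 1.76, 4.48 and 5.83 TPM against 18, 20.9 and 22.4 TPM (log2 -2.47, SE 0.49, adjusted p = 0.00109). In both genes the groups lay far apart, and both were lower under each scaling tried. The 4 members that did not pass were PAN2 (log2 -0.32), EDC4 (-0.26), EXOSC4 (0.16) and SKIV2L (0.45). At 60 min replicate A held the lowest primary TPM for 33 of 35 members, which matches its lowest primary share among the libraries of that time. CCR4-NOT had a median log2 change of -2.09 over 9 genes and core exosome genes one of -0.91 over 8 genes. By complex, 9 of 9 CCR4-NOT genes and 7 of 8 core exosome genes fell, beside 59.4% of all genes tested. After median-ratio scaling the core genes EXOSC1 (log2 0.48), EXOSC2 (0.59), EXOSC3 (0.66) and EXOSC8 (0.57) were instead called higher. EXOSC1, EXOSC3 and EXOSC8 were also called higher after quantile normalization, and no core gene was called lower under either scaling. CNOT2, CNOT4, CNOT6L and CNOT10 stayed lower under both.

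The ratio of primary to mature TPM within a library does not depend on how libraries are scaled against each other. It was lower at 60 than at 7.5 min in 29 of 35 members, with 62.8% of 13879 genes called lower, and higher in none (1.09% of all genes), also at an unadjusted p under 0.05 in limma. The count stayed at 28 or 29 in each alternative, and the median log2 change was -2.03 for the members and -1.81 for all genes. The strongest fall was that of DCP1A (log2 -4.26, SE 1.25, adjusted p = 0.00929), whose fit includes the library listed at 0 and whose call was lost without 60 min replicate A. PAN2 was no longer called without 60 min replicate C or without 7.5 min replicate A. CNOT6L fell by 3.86 (SE 0.55, adjusted p = 7.23e-05).

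Of the core exosome genes, 4 of 8 fell in this ratio (EXOSC2, EXOSC3, EXOSC8 and EXOSC9), beside the 62.8% of all genes called lower, with a median log2 change of -1.0 against -1.81 over all genes. All 9 CCR4-NOT genes, all 4 exosome-type nucleases, both XRN genes, 3 of 3 other deadenylase genes and 5 of 6 decapping genes fell, with medians of -2.61, -1.75, -2.17, -1.95 and -2.54. MTREX and TTC37 fell and SKIV2L did not pass (median of these 3 genes -2.03). The 4 core genes that did not pass were EXOSC1 (log2 -0.31, SE 0.31), EXOSC4 (-0.28, SE 1.15), EXOSC5 (0.18, SE 0.42) and EXOSC7 (-0.81, SE 0.44). These are comparisons of values between groups of genes, and the difference between complexes was not tested.

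Expressed as a share, the primary transcript of the median member made up 12.1 ± 3.11% of its gene's TPM at 60 min and 34.8 ± 1.67% at 7.5 min (SD over 3 libraries), beside 14.8 ± 3.07% and 38.9 ± 0.477% for the median of all genes tested. Core exosome genes kept 21.1 ± 3.69% at 60 min, with 18, 20.2 and 25.2% in the 3 libraries. Each of these 3 values was above every library of every other complex at that time, the highest of which was 15.0% for decapping genes. At 7.5 min the core exosome (34.1 ± 3.54%) lay among the others, which ran from 20.9 ± 3.44% for PAN2, PAN3 and PARN to 41.7 ± 3.96% for decapping. In total RNA all complexes were between 1.15 ± 0.322% (helicases) and 2.64 ± 0.643% (core exosome).

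Single genes spread widely within a complex. EXOSC5 had the highest unspliced share at 60 min, 38.0 ± 8.36%, against 34.9 ± 1.75% at 7.5 min, and EXOSC4 (31.9 ± 10.5%), EXOSC1 (25.7 ± 4.27%), EXOSC7 (25.5 ± 7.19%) and the decapping gene DCPS (23.8 ± 7.54%) followed. The lowest were CNOT1, with 4.36 ± 1.59% at 60 min against 21.2 ± 2.03% at 7.5 min, and PARN (5.77 ± 2.04%). At 7.5 min the order was another one: DCP1A (74.2 ± 4.32%), PAN3 (67.4 ± 4.19%), CNOT6 (60.2 ± 4.72%) and CNOT6L (57.3 ± 4.35%) stood highest, and by 60 min each was at or below 15.5%.

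Gene length went with the share at 60 min. The core exosome genes are short, with a median of 11.1 kb in GENCODE release 29 (2.02 to 60.8 kb over 9 genes), against 86.3 kb for CCR4-NOT. Across the 35 members the share at 60 min and log10 gene length had a Pearson r of -0.62 and a Spearman rho of -0.65, and at 7.5 min r was 0.08 and rho -0.01. Genes are not independent replicates, they share the same libraries, and the part of length in the difference between complexes was not tested. EDC4, at 11.8 ± 1.85%, is a short gene without a high share, while EXOSC7 and DCPS are longer genes with one.

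**Figure D3:**
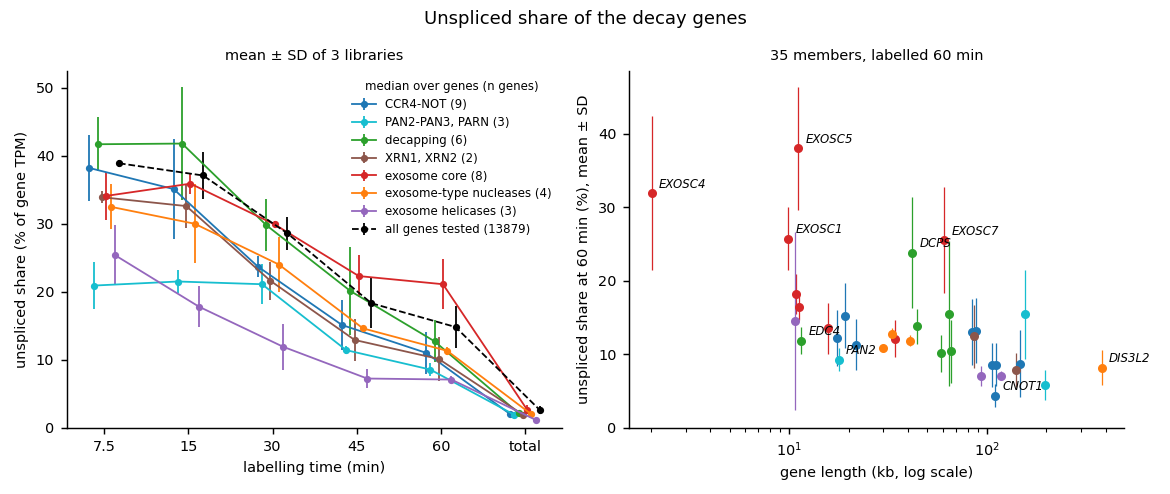
Left, median unspliced share of each complex (percent of gene TPM, mean ± SD of 3 libraries) against labelling time in minutes (evenly spaced, total RNA at the right). Right, unspliced share at 60 min of 35 members against gene length on a log axis. The core exosome keeps 21.1% at 60 min, where the other complexes lie between 7.07 and 12.7%.

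Second, the authors' intron table gave the excised share of single introns (theta), the fraction of reads at an intron's splice sites that are spliced, as the mean of 3 replicates per labelling time. It held 207 introns in 23 of the 37 genes, with 49 in CNOT1, and 8 of the 207 share a splice site with another. The table keeps only introns with enough reads, so it does not cover the members evenly. The median member intron was excised in 85.6% of cases at 60 min and 53.4% at 7.5 min, beside 84.4 and 54.2% over all 21782 introns. The authors' fast class held 98 of the 207 (47.3%, against 39.4% of all introns) and their slow class 29 (14.0%, against 17.7%).

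Of those 29 slow introns, 13 were among the 17 introns of the core exosome. The median of these 17 was 40.4, 39.4, 51.4, 52.1 and 63.2% at 7.5, 15, 30, 45 and 60 min, whereas the 62 CCR4-NOT introns had 55.6, 62.0, 80.2, 90.7 and 89.7%. At 60 min the medians were 88.2% for the helicases, 88.0% for PARN, 85.6% for decapping, 81.6% for the exosome-type nucleases and 79.5% for XRN1 and XRN2. Introns excised in under 60% at 60 min numbered 6 of 17 in the core exosome, 2 of 20 in PARN, 1 of 34 in the nucleases and none of 62 in CCR4-NOT, 38 in the helicases, 25 in XRN1 and XRN2 and 11 in decapping, against 6.69% of all introns. By gene the core medians ran from 51.9% (EXOSC8, 1 intron) and 54.3% (EXOSC5, 2 introns) to 80.3% (EXOSC9, 5 introns). The median core intron was 904 bases long with a GC content of 46.5%, against 1420 bases and 41.4% over all introns, and its median donor and acceptor scores (9.04 and 8.64) were close to those of all introns (8.76 and 8.72).

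EXOSC2, an RNA-binding cap subunit of the exosome, had both ends of this range in 1 gene. Of its 7 introns in the table, 6 were at 48.8 to 63.2% at 60 min and were all classed slow, while the last, 512 bases at chr9:133578569-133579080 (hg19, plus strand), was at 92.1% at 60 min and 77.0% at 7.5 min. The 2 lowest were a 534-base intron at chr9:133573015-133573548, with 48.8% at 60 min and 23.7% at 7.5 min, and a 742-base intron at chr9:133577698-133578439, with 49.0 and 33.6%. The lowest of all member introns was in PARN, 432 bases at chr16:14723532-14723963 (minus strand), with 38.5% at 60 min, 61.1% at 45 min and 34.4% at 7.5 min. Its GC content was 67.4%, beside 37.6% for the median member intron. The 3 highest were in CNOT1: 1333 bases at chr16:58609034-58610366 (96.7%), 1038 bases at chr16:58619411-58620448 (96.3%) and 89 bases at chr16:58621160-58621248 (96.2%), all on the minus strand.

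The exon junctions left by these introns are shown to identify them, each as the last 18 coding bases of the upstream exon in lower case and the first 18 of the downstream exon in capitals. They were read from GENCODE release 29 transcripts (GRCh38) by gene and intron length, which matched for 206 of the 207 introns, and lengths with more than 1 sequence are left out.
PARN, 432-base intron: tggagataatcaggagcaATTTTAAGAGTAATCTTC
EXOSC2, 534-base intron: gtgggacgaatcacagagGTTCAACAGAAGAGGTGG
EXOSC2, 742-base intron: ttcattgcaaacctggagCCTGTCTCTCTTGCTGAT
EXOSC2, 512-base intron: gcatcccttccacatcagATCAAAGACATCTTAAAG
CNOT1, 1333-base intron: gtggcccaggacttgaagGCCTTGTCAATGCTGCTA
CNOT1, 89-base intron: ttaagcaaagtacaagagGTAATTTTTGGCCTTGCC
The first 3 lines belong to the lowest introns at 60 min, the fourth to the fast last intron of EXOSC2 and the last 2 to introns near complete excision.

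In a pair of introns of CNOT1 and in a pair of EXOSC2, 1 acceptor was joined to 2 donors a short distance apart. The stretch between the donors, which is kept in the mRNA when the downstream donor is used, is printed in capitals between exon bases in lower case, because its length decides whether the reading frame is kept.
CNOT1, 21 bases: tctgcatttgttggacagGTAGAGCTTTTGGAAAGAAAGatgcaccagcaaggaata
EXOSC2, 13 bases: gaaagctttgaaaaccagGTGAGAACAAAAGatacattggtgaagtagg
In CNOT1 (chr16:58568300-58570892 and chr16:58568300-58570871) the authors' spliced-in index (psi) at 7.5, 15, 30, 45 and 60 min was 81.6, 80.4, 86.2, 84.0 and 82.0% for the longer intron and 18.4, 19.6, 13.8, 16.0 and 18% for the shorter, which adds 21 bases, a multiple of 3. In EXOSC2 (chr9:133570981-133572968 and chr9:133570994-133572968) it was 76.7, 69.8, 80.4, 84.4 and 67.6% for the longer and 21.4, 26.3, 19.1, 14.9 and 25% for the shorter, which adds 13 bases and is not a multiple of 3. Both stretches begin with GT, as introns do. In both genes the minor form was present at each labelling time and showed no steady course. The 2 introns of a pair were excised alike at 60 min, at 90.2 and 90.9% in CNOT1 and at 63.2 and 62.7% in EXOSC2 (longer and shorter).

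**Figure D4:**
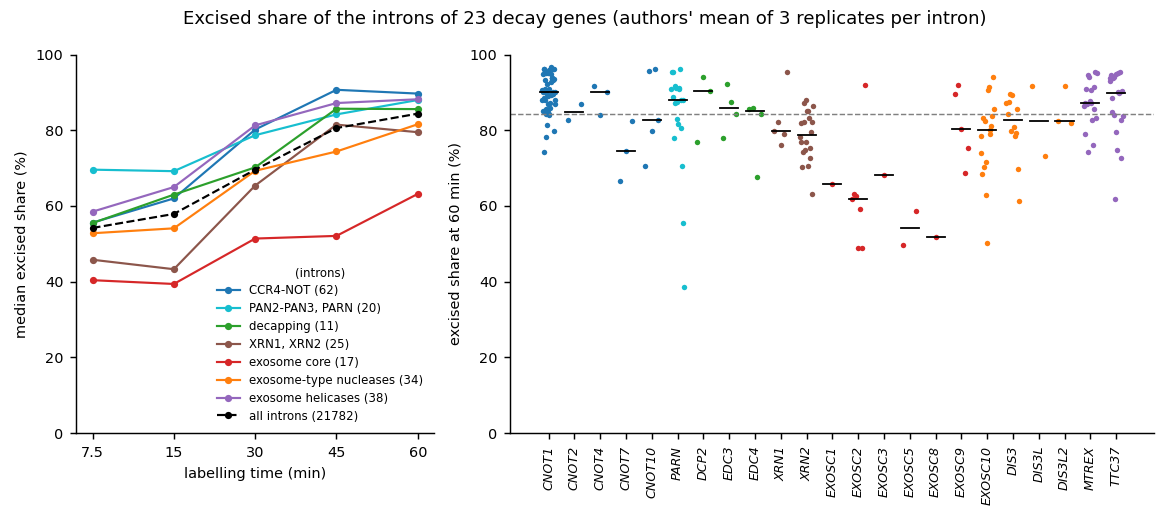
Left, median excised share of the introns of each complex (percent) against labelling time in minutes (evenly spaced). Right, excised share at 60 min of each of 207 introns by gene, with gene medians as bars and the median of all introns (84.4%) dashed. Points are the authors' means of 3 replicates. The core exosome reaches 63.2% and 14 of its 17 introns lie below the dashed line.

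The authors' rate table gives centred scores for synthesis, processing and degradation per gene, and held 34 of the 37 members (not CNOT3, EXOSC4 and SKIV2L). They are the authors' estimates from all labelling times together and carry no replicate error here, so they are given as values with their percentile among 15120 genes. Synthesis scores were high for nearly all members: 33 of 34 lay above the median of all genes (0.12) and the members' median was 0.50. CNOT1 (1.06, percentile 97.7), EXOSC2 (0.91, 96.1) and MTREX (0.79, 93.9) were highest, and DCPS (-0.19, 32.1), DCP1A (0.18, 53.9) and DCP1B (0.23, 58.3) lowest. By complex the median ran from 0.30 for PAN2, PAN3 and PARN to 0.79 for the 2 helicase genes with a score.

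Degradation scores were mostly below the median of all genes. The members' median was -0.14, against -0.04 over all genes, and 8 of 34 lay above that value. The highest scores belonged to DIS3L2 (0.38, percentile 85.3), DCP1A (0.17, 71.8) and XRN1 (0.13, 68.4), and the lowest to CNOT11 (-0.52, 9.1), EXOSC8 (-0.47, 11.7) and XRN2 (-0.46, 12.2). The 2 XRN mRNAs thus stood far apart in this order. Complex medians lay between -0.21 (core exosome) and -0.11 (helicases). Within CCR4-NOT the scores ran from -0.52 (CNOT11) to 0.09 (CNOT6L).

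Processing scores, of which only the order is used because their log base is not stated, were highest for DIS3L2 (percentile 95.8), CNOT1 (95.5) and PARN (95.3). They were lowest for EXOSC8 (20.5), EXOSC6 (34.1) and PAN3 (37.2), and that of EXOSC6, which has no intron, was imputed by the authors. The median percentile was 44.5 for the core exosome, the lowest of all complexes, 64.2 for CCR4-NOT and 89.4 for the helicases. Across the 34 members degradation and synthesis scores had a Pearson r of -0.11 and a Spearman rho of -0.22.

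The table also holds scores from other libraries of the authors. For the balance of polyribosomal against cytosolic RNA, 7 of 8 core exosome genes lay above the median of all genes, from EXOSC5 at percentile 96.7 and EXOSC1 at 95.4 to EXOSC8 at 63.5, while EXOSC9 was at 23.8. The decapping gene DCPS, at 93.6, was the third highest member. This difference between complexes was not tested. DIS3 (percentile 2.3), XRN1 (3.0), MTREX (3.2) and TTC37 (3.7) were at the other end. For cytoplasmic against nuclear RNA, PAN2 (3.4) and XRN1 (4.4) were the lowest members. Translation scores from ribosome profiling were above the median of all genes for 31 of 34 members, with EXOSC8 (percentile 93.1) and XRN2 (92.9) highest. DCP1A was at -2.97, the lowest value of the table, which 23.9% of all genes share, so that it has no rank of its own. In the authors' grouping of all genes into 7 clusters on 6 measures, these among them, 15 of the 34 were in cluster c1, which holds 13.7% of all genes and has a median synthesis score of 0.68 and a median degradation score of -0.39. PAN2, PAN3, XRN1, DIS3L, DIS3L2, CNOT4, CNOT6 and CNOT6L were in c3, which holds 21.8% of all genes and 23.5% of the members.

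**Figure D5:**
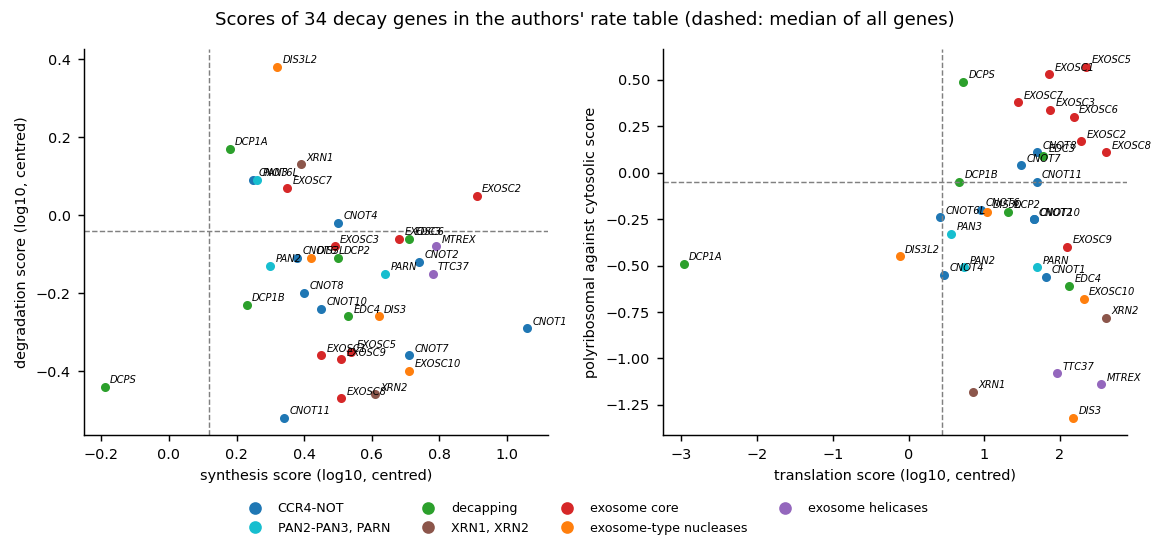
Left, degradation against synthesis score of 34 members, coloured by complex. Right, polyribosomal against cytosolic score plotted over the translation score. Points are the authors' centred scores per gene and dashed lines the medians of all genes. Nearly all members lie right of the synthesis median, and 7 of 8 core exosome genes lie above the polyribosomal median.

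The second expression comparison sets total RNA, which is mostly old, against RNA labelled for 60 min. In the limma fit over 18 libraries 20 of 37 members were lower in total RNA, with 40.1% of 16580 genes called lower, and none was higher (5.24% of all genes), also at an unadjusted p under 0.05. The members' median log2 difference was -0.85, the same as that of all genes within 0.01 (-0.84). This split reverses with the scale. After median-ratio scaling, which moves the median of all genes to -0.06, 8 members were higher and 0 lower, beside 2856 and 2519 of 16580 genes. After quantile normalization (median -0.06) the counts were 5 and 5, beside 2276 and 2511 of all genes. Without 60 min replicate C the count of lower members was 13 and without the RZ library 14, beside 5384 and 4784 of all genes.

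The strongest differences were those of DCP1A and CNOT4. DCP1A had 9.29, 6.38 and 3.02 TPM in total RNA (PA, RH, RZ), against 36.0, 23.2 and 26.2 TPM at 60 min (log2 -2.10, SE 0.61, adjusted p = 0.00873 in limma), and the call was lost without the RZ library. CNOT4 had 27.7, 28.5 and 4.89 TPM against 67.1, 51.9 and 57.3 TPM (log2 -1.80, SE 0.41, adjusted p = 0.00179), and its log2 difference was -1.03 (adjusted p = 0.00115) without the RZ library. DIS3L2 (log2 -1.74), EXOSC6 (-1.71) and EDC3 (-1.61) came next. None of these 5 genes was called lower after median-ratio scaling. The RZ library was the lowest for DCP1A, CNOT4, EDC3 and DIS3L2.

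At the other end stood EXOSC5 (log2 0.72), EXOSC1 (0.41), DCPS (0.36), EXOSC8 (0.05), XRN2 (0.03) and CNOT11 (0.03), none of which passed on the TPM scale. These 6, with CNOT10 and EXOSC10, are the 8 genes called higher after median-ratio scaling. Of the catalytic subunits, XRN1 was lower in total RNA (log2 -1.44, SE 0.34, adjusted p = 0.00198) and XRN2 did not pass (0.03, SE 0.24). CNOT6L (-1.55), PAN2 (-1.36), CNOT6 (-1.20), CNOT8 (-1.0), DCP2 (-0.99) and DIS3 (-0.76) were called lower, while CNOT7 (-0.39), PARN (-0.73) and EXOSC10 (-0.12) did not pass. By complex, 5 of 6 decapping genes, 6 of 10 CCR4-NOT genes and 3 of 9 core exosome genes were called lower, beside 40.1% of all genes tested. Their medians were -0.98, -0.91 and -0.40, against -0.84 over all genes. After median-ratio scaling no member was called lower, and the difference between complexes was not tested. Both expression comparisons share the libraries of 60 min, so they are not independent.

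For comparison, 37 further genes of RNA decay were taken through the same fits, among them the LSM ring that binds deadenylated mRNA, poly(A)-binding proteins, cofactors of the nuclear exosome, tail-modifying enzymes and the CCR4-NOT subunit CNOT9. In mature RNA at 60 against 7.5 min 13 were higher and 2 lower, beside 15.8 and 4.21% of all genes tested. The largest changes were those of NOCT, a member of the deadenylase family (log2 2.67), the decapping factor PNRC2 (2.49) and the LSM subunits LSM3 (-1.34) and LSM7 (-1.14). In total RNA against 60 min 3 were higher (LSM3 at 1.61, LSM7 at 1.08 and LSM2 at 0.95) and 19 lower, led by NRDE2 (-2.63) and NOCT (-2.56). Of all genes, 5.24% were higher and 40.1% lower there. In the ratio of primary to mature RNA 25 of 36 fell (62.8% of all genes), led by NOCT (-5.13) and TENT4B (-4.58), and LSM7 rose (1.68). In primary RNA 29 of 36 fell (59.4% of all genes), with TENT4B (-2.39) and HBS1L (-2.34) at the front, and LSM7 rose (0.53). The mature and primary counts are on the TPM scale alone, and other scalings were not described for these genes.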

How the data were processed

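The authors deposited TPM per gene for mature and primary transcripts. The submitters' processing notes name Bowtie 1.0.1, RSEM 1.2.11 and hg19. The annotation was GENCODE release 19 with a locus-spanning primary isoform added for each gene, per the file headers. TPM are shares of a library and keep no depth. The excised share of an intron is a fraction that the authors derived with bam2ssj from junction reads, averaged over the replicates, per the file headers. The authors' rate scores come from INSPEcT, with missing processing scores of intronless genes imputed, per the file headers. The synthesis and degradation scores follow the log10 of linear rates in the authors' intron table. Copies per cell, a signal scaled to spike-ins, were also made by the authors. Intron lengths were deposited as log10 values by the authors.

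Mature TPM were tested as log2(TPM + 1), primary TPM as log2(TPM + 0.1) and their ratio with a pseudocount of 0.1, in limma 3.58.1 (R 4.3.3, moderated variances with a mean trend), with Benjamini-Hochberg adjustment over all genes at 0.05. Means of at least 1 TPM (mature) or 0.1 TPM (primary) were required. Pseudocounts shrink the log2 changes of weakly expressed genes. The labelled comparisons used 15 libraries and the comparison with total RNA 18. The fits were tested on simulated data. Complexes, introns and scores were described without a test. Symbols matched 82.1% of entries, and gene lengths and junctions come from GENCODE release 29 (GRCh38). Members and the pathway and marker lists were chosen with earlier results of these data known. Named are the catalytic subunits, the 2 largest calls per direction and comparison, and the 3 highest and lowest values of each rate score and of the introns. Other genes were named after their values were seen. Alternatives were other pseudocounts, scalings and filters, each library left out, the 6 compared libraries alone and a replicate block.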

Additional observations from a re-analysis of the deposited data

How the results depend on the processing

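In mature RNA at 60 against 7.5 min, the counts of members called higher and lower (12 and 1) became 3 and 5 after median-ratio scaling, 4 and 4 after quantile normalization, and 5 and 3 with TPM rescaled over mature transcripts. Over all genes tested, these 3 scalings called 1296 and 1306, 1510 and 1176, and 1588 and 960 higher and lower. Without a filter 0 members were lower, and with only the 6 libraries 2 were lower, beside 553 and 999 of all genes. Leaving out 1 library gave 5 to 9 members higher and 0 to 1 lower, beside 1835 to 2226 and 408 to 558 of all genes. The replicate block gave 19 members higher and 5 lower, beside 3669 and 1090 of all genes. Deviations of same-lettered libraries correlated across genes at 0.273 (A), 0.084 (B) and 0.089 (C). Across letters, A against B or C gave -0.199 to -0.114, and B against C gave 0.042 and 0.128. Replicate A thus deviated alike at 7.5 and 60 min, but B and C were not told apart. The letters are therefore not shown to pair all samples. In total RNA against 60 min, median-ratio scaling gave 8 members higher and 0 lower, quantile normalization 5 and 5, and leaving out 1 library 13 to 21 lower. Over all genes tested these gave 2856 and 2519, 2276 and 2511, and 4784 to 7165 lower. In primary RNA, median-ratio scaling gave 6 members higher and 12 lower, and quantile normalization 5 and 12. Over all genes tested these gave 2963 and 3135, and 2471 and 3486. Some log2 changes turned positive: DIS3 in total RNA to 0.23 (median-ratio), primary CNOT8 to 0.15 and 0.13, and primary EXOSC10 to 0.34 and 0.24 (median-ratio and quantile). Primary EXOSC1, EXOSC3 and EXOSC8 were called higher under both scalings, and primary EXOSC2 after median-ratio scaling alone. With 1 median per gene first, the excised share of CCR4-NOT introns was 75.0% at 30 min and 85.2% at 45 min, that of XRN introns 54.1% at 7.5 min and 54% at 15 min, and that of nuclease introns 58.4% at 7.5 min. As a share of summed TPM, the unspliced share of CCR4-NOT was 19.1% at 30 min, 11.3% at 45 min and 1.47% in total RNA. That of PAN2, PAN3 and PARN was 28.7% at 7.5 min and 25.3% at 15 min, that of XRN genes 35.4% at 7.5 min and 1.42% in total RNA, that of the core exosome 30.7% at 30 min, and that of the nucleases 14.2% at 45 min and 1.56% in total RNA. The mean synthesis score of PAN2, PAN3 and PARN was 0.40. The cause of these shifts was not tested. TPM keep no depth, so values near 0 carry an unknown error.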
